A study of Raphidocelis subcapitata with 45 samples.

Results

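Among the well expressed genes of the freshwater green alga Raphidocelis subcapitata, 57 kept group means close to the solvent control at every sertraline concentration tested. They were chosen by their measured values: a control mean of at least 5.5 on the deposited log2 scale, and a group mean less than 0.3 (1.23-fold) above or below the control mean at each of 8 concentrations. These 57 genes were 2.90% of the 1963 genes at or above that floor and came from a table of 7291 genes. The word stable is used below for genes that met this rule, and it does not mean that a difference was shown to be absent. Because the group means chose the genes, their differences from the control, and the counts of genes called in those contrasts, are given as a description and support nothing. The table lists genes by identifier only and does not pair them with product names, so no gene family or pathway is given, and 5 of the 57 are named by identifier.

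Genes with steady transcript levels serve as reference genes, against which other transcripts are measured in quantitative PCR. In plants and green algae such reference genes are often sought among genes for translation, protein turnover, the cytoskeleton and central carbon metabolism. Their use rests on the level holding both across treatments and between parallel samples. Sertraline is an antidepressant that blocks serotonin reuptake in animals, and it is a cationic amphiphilic compound that reaches surface waters with sewage effluent.

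The cultures, of a strain credited to Carolina Biological, were in exponential growth and were exposed for 24 h in sealed deep-well plates under constant light in Woods Hole MBL medium. The groups were a solvent control without sertraline and sertraline at nominal 50, 125, 314, 784, 1960, 4900, 12249 and 30623 µg/L. All wells held solvent, whose content is given differently in the treatment protocol and the design text, and RNA came from homogenates pooled over plates. Transcripts were counted with a 3′ mRNA kit, which primes on the poly(A) tail. The 12249 and 30623 µg/L groups had 3 libraries each (A to C, and A, C and D) and the others 5, lettered A to E, for 41 libraries in all. The labels name no separate cultures, so the spread between these libraries may be technical. Read depth per library is unknown, since the values are normalised log2 expression without counts. Over all genes, the median difference of a library from the control mean lay between -0.05 and 0.02, in values that the authors had already normalised.

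Most of the 1963 well expressed genes left the band of 0.3 around the control at the high concentrations. The band held 1935 of them (98.6%) at 50 µg/L and 1628 (82.9%) at 784 µg/L. It held 985 (50.2%) at 1960 µg/L, 812 (41.4%) at 4900 µg/L, 407 (20.7%) at 12249 µg/L and 351 (17.9%) at 30623 µg/L. Counted cumulatively from 50 µg/L up, 1552 genes were still inside at 784 µg/L and 845 at 1960 µg/L, and this number fell through 474 and 185 to 57 at the 3 highest concentrations. The last step therefore took out 128 genes that had met the rule at the 7 lower concentrations. A further 66 genes missed the rule at 12249 µg/L alone. Among the genes that did not meet the rule, 1020 had a largest difference of at least 1.

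**Figure D1:**
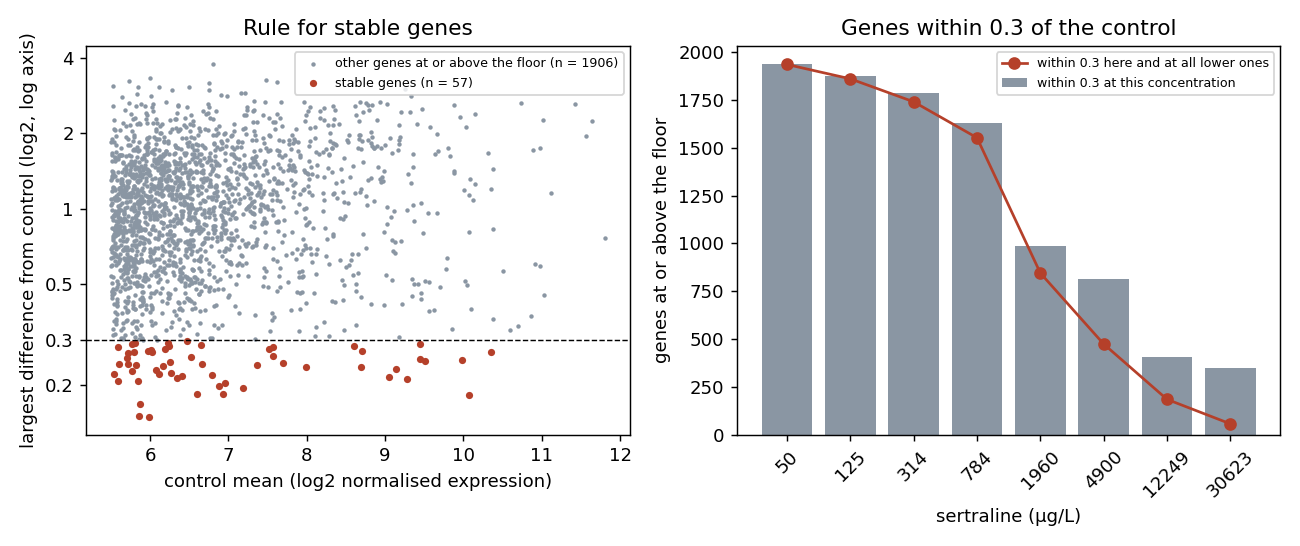
Left, the largest absolute difference of a group mean from the control (log2, logarithmic axis) against the control mean (log2 normalised expression) for the 57 stable genes and the 1906 other genes at or above the floor; the dashed line is 0.3. Right, the number of these genes within 0.3 of the control at each concentration (bars) and at that and all lower concentrations (points), which ends at 57 at 30623 µg/L.

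The boundary of the set cut through a continuous range of values. Just inside it the largest differences of 3 genes were 0.298, 0.291 and 0.291, and just outside they were 0.301, 0.302 and 0.303. A further 91 well expressed genes had a largest difference between 0.3 and 0.4. At the floor, the lowest control means inside were 5.54, 5.58 and 5.59, and the highest of genes that met the band but not the floor were 5.499, 5.46 and 5.44. Within the set the largest difference of a gene ranged from 0.148 to 0.298 with a median of 0.242. For 15 genes it occurred at 30623 µg/L, for 13 at 12249 µg/L, for 11 at 4900 µg/L and for 10 at 1960 µg/L. The remaining 8 had it at 784 µg/L (6 genes), 314 µg/L (1) or 125 µg/L (1).

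The stable genes spanned much of the range of expression above the floor, but not its top. Their control means ran from 5.54 to 10.3 with a median of 6.41, beside a median of 6.39 and a highest value of 11.8 over all 1963 genes. The set held 17 of the 614 genes with a control mean from 5.5 to 6 (2.77%), 21 of 771 from 6 to 7 (2.72%), 7 of 322 from 7 to 8 (2.17%) and 12 of 256 at 8 or more (4.69%). These levels are not divided by transcript length.

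Over all 41 libraries the SD of a stable gene ran from 0.147 to 0.333, with a median of 0.206 on the log2 scale. The median was 0.421 for the 1906 other genes at or above the floor, a difference that the rule itself favours. The genes at the ends of this range, 2 with the lowest and 2 with the highest SD, are described by library.

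Rsub_04257 had the lowest SD over all libraries, 0.147. In control libraries A to E it stood at 9.43, 9.42, 9.12, 9.25 and 9.16. At 50 µg/L it stood at 9.18, 9.31, 9.35, 9.27 and 9.32, and at 125 µg/L at 9.29, 9.11, 9.29, 9.33 and 9.38. All 10 of these treated libraries lay below the highest control library, and most lay inside the control range. At 314 µg/L the values were 9.14, 9.29, 9.12, 9.25 and 9.28, and at 784 µg/L 9.10, 9.14, 9.15, 9.25 and 9.05. The 784 µg/L libraries were at the low end, with A and E below the lowest control library. At 1960 µg/L they were 9.19, 9.17, 9.35, 9.29 and 9.32, and at 4900 µg/L 9.22, 9.03, 9.41, 9.17 and 9.40. At 12249 µg/L libraries A, B and C stood at 9.43, 9.23 and 9.80, and at 30623 µg/L A, C and D stood at 9.63, 9.30 and 9.28. Replicate C at 12249 and replicate A at 30623 µg/L were the highest of all, and the other libraries of both groups lay inside or close to the control range. Its control mean was 9.28 ± 0.14 (SD, n = 5). The group furthest from it was 12249 µg/L, with a mean of 9.49 ± 0.29 (SD, n = 3) and a difference of 0.21.

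Rsub_00343 had the second lowest SD, 0.156, at a higher level. In control libraries A to E it stood at 10.16, 10.01, 9.93, 10.28 and 9.95, and over the 25 libraries from the control to 784 µg/L it ran from 9.87 to 10.28 with a median of 9.98. Over the 10 libraries at 1960 and 4900 µg/L it ran from 9.71 to 10.17 with a median of 10.04. At 12249 µg/L libraries A, B and C stood at 10.11, 10.17 and 10.46, and at 30623 µg/L A, C and D stood at 10.45, 9.68 and 10.06. At 30623 µg/L the mean was 10.06 ± 0.39 (SD, n = 3), beside 10.07 ± 0.15 (SD, n = 5) in the control. The means were nearly equal, while A lay above all control libraries and C below all of them.

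Rsub_01299 had the highest SD of the set, 0.333. In control libraries A to E it stood at 5.86, 5.87, 5.81, 5.95 and 5.49. At 50 µg/L it stood at 5.57, 5.71, 5.44, 5.48 and 5.88, and at 125 µg/L at 5.71, 5.64, 5.64, 5.14 and 5.68. The libraries at 125 µg/L lay below 4 of the 5 control libraries, and D lay lowest. At 314 µg/L the values were 5.90, 5.59, 5.64, 5.35 and 5.41, and at 784 µg/L 5.74, 5.60, 5.64, 5.31 and 5.34. At 1960 µg/L they were 5.63, 6.25, 5.96, 6.38 and 5.95, and at 4900 µg/L 5.79, 5.83, 6.23, 6.03 and 5.90. All 5 libraries at 784 µg/L lay below the control mean and 4 of the 5 at 1960 µg/L above it, with differences of -0.27 and 0.24 that both stayed inside the rule. At 12249 µg/L libraries A, B and C stood at 6.35, 6.08 and 5.39, and at 30623 µg/L A, C and D stood at 6.54, 4.98 and 5.61. The 30623 µg/L mean of 5.71 ± 0.79 (SD, n = 3) lay near the control mean of 5.80 ± 0.18 (SD, n = 5), although A and C were the highest and the lowest of all 41 libraries.

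Rsub_11455 had the second highest SD, 0.307, and was widely spread in some groups at low as well as high concentrations. Its SD within a group was 0.459 at 50 and 0.674 at 30623 µg/L, but 0.173 at 314 and 0.238 at 12249 µg/L. In control libraries A to E it stood at 5.91, 5.64, 5.63, 5.36 and 5.15, and over the 25 libraries from the control to 784 µg/L it ran from 4.67 to 5.91 with a median of 5.501. Over the 10 libraries at 1960 and 4900 µg/L it ran from 5.09 to 5.95 with a median of 5.55. At 12249 µg/L libraries A, B and C stood at 5.69, 5.73 and 5.30, and at 30623 µg/L A, C and D stood at 5.90, 5.48 and 4.58. Libraries below all control libraries occurred at low and high concentrations: E at 50, D at 1960, A at 4900 and D at 30623 µg/L. Its group means stayed between 5.32 and 5.61.

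**Figure D2:**
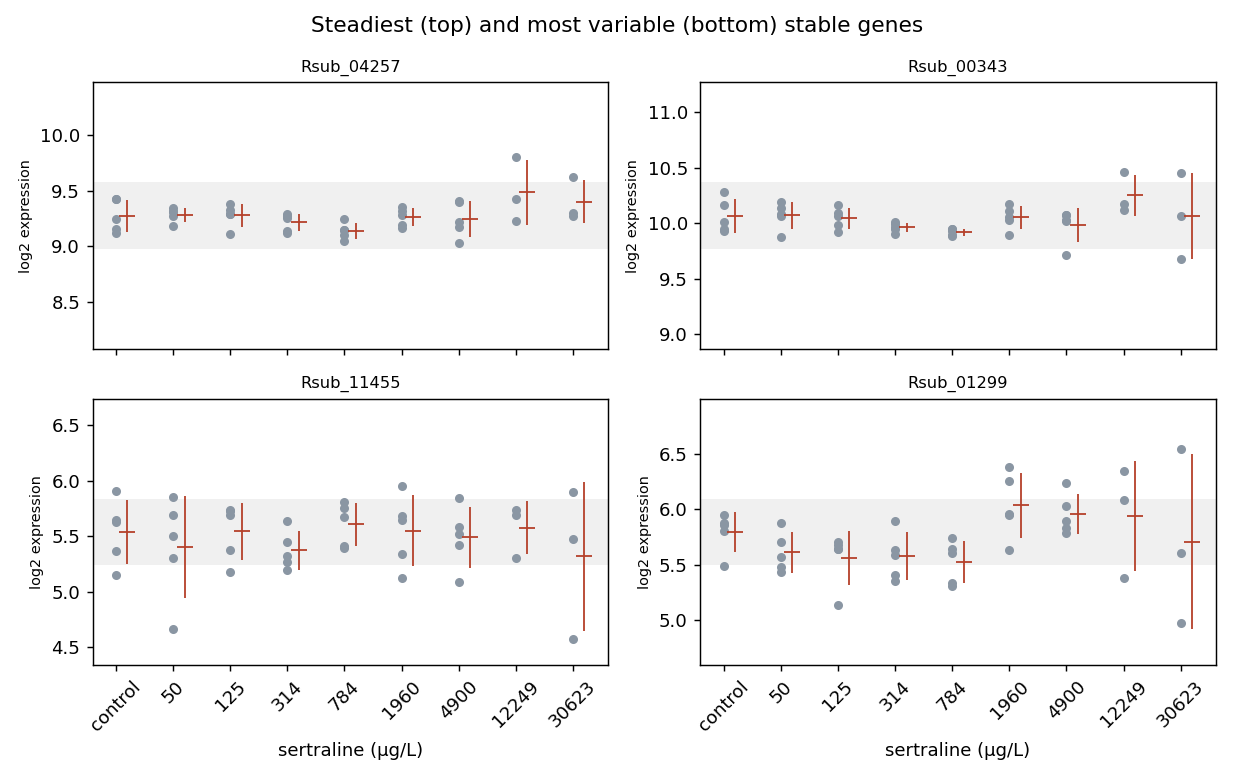
Log2 normalised expression of the 2 steadiest (top) and the 2 most variable (bottom) stable genes in every library by sertraline concentration (µg/L). Points are libraries, red bars the group mean ± SD (n = 5, or 3 at 12249 and 30623 µg/L), and the grey band is the control mean ± 0.3; group means stay in the band, while single libraries of all 4 genes leave it, those of the bottom pair also in the control or at low concentrations.

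Of the 57 genes, 1 was called different from the control at any single concentration by limma, with Benjamini-Hochberg adjustment over all 7291 genes and a threshold of 0.05. Since the rule used these contrasts, the counts describe the set and nothing is read from them. At 50 and 125 µg/L 0 of the 57 were called and 0 had an unadjusted p under 0.05, where 0% of all genes were called at either concentration. At 314 µg/L 0 were called (0.727% of all genes) and 0 had an unadjusted p under 0.05, and at 784 µg/L 0 were called (2.92% of all genes) and 2 had an unadjusted p under 0.05. At 1960 µg/L 0 were called (22.1% of all genes), with 6 at an unadjusted p under 0.05. At 4900 µg/L 1 was called (33.6% of all genes), with 3 at an unadjusted p under 0.05. None (0) was called at 12249 µg/L (49.7% of all genes), with 4 at an unadjusted p under 0.05, and at 30623 µg/L 0 (53.9% of all genes), with 1. A moderated F test over all concentrations, which adds up small differences, called 11 of the 57 (72.8% of all genes).

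The gene called at 4900 µg/L was Rsub_08212, named here because it was the single call. In control libraries A to E it stood at 8.57, 8.53, 8.58, 8.68 and 8.64, and at 4900 µg/L at 7.99, 8.46, 8.53, 8.27 and 8.33. All 5 treated libraries lay below all control libraries, by a narrow margin for C. The difference was -0.28 ± 0.11 (SE). The call was lost without control replicate A, C, D or E, without replicate D or E of 4900 µg/L, when libraries were centred, and when the control and 4900 µg/L groups were fitted alone.

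The precision of these comparisons was limited. The median standard error of a stable gene's difference from the control was 0.14 with 5 libraries and 0.16 with 3. These errors take 1 spread per gene for all groups. The median SD within a group was 0.149 in the control and 0.345 at 30623 µg/L. Intervals at the high concentrations may therefore be too narrow, and those at the low ones too wide. The 95% interval of the difference lay wholly within 0.5 (1.41-fold) of the control for 55 of the 57 genes at 50 µg/L and for 51 at 784 µg/L. From 1960 µg/L up it did so for 41, 46, 37 and 30 genes in order of concentration. At all 8 concentrations together it did so for 13 genes, and for 3 when each concentration was fitted with the control alone. Within 1 it lay at all 8 concentrations for all 57 genes in both fits. Since the rule kept every difference under 0.3, it favoured intervals within 0.5 and within 1. The 95% level need not hold for differences that were chosen to be small. These counts are therefore a description and do not show that the genes equal the control.

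The small differences inside the band, which the rule itself bounded, are described here by their sign. The genes share the same libraries and are not independent, so nothing is read from the counts. Up to 4900 µg/L the median over the 57 genes lay between -0.04 and 0.00, with 22 to 29 genes above the control mean. At 12249 µg/L 46 of the 57 lay above it, with a median of 0.13, and at 30623 µg/L 21 lay above it, with a median of -0.07. The 1906 other well expressed genes had medians of -0.38 at 12249 and -0.75 at 30623 µg/L, a contrast that the rule itself favours. The upper quartile of those genes at 30623 µg/L was -0.10.

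Single libraries departed further than group means. None of the 57 genes stayed within 0.3 of its control mean in all 41 libraries, and 16 stayed within 0.5 in all 36 treated libraries. Of the 1906 other well expressed genes 7 did, a difference that the rule itself favours. The largest departure of a stable gene in any library ranged from 0.38 to 0.96 with a median of 0.56. For 21 genes it occurred at 30623 µg/L, for 11 each at 12249 and 4900 µg/L, for 8 at 1960 µg/L, and for 6 in the control or the groups below 1960 µg/L. The 16 genes had control means from 5.70 to 10.3.

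The 12249 µg/L libraries had medians over the 57 genes of 0.14 in replicate A, 0.04 in B and 0.17 in C, all above 0. At 30623 µg/L the 3 libraries lay on opposite sides of the control. The median over the 57 genes was 0.26 in replicate A, -0.22 in C and -0.19 in D, where the control libraries lay between -0.04 and 0.04. In A 46 genes were above their control mean, in C 11 and in D 16. In A 28 genes were within 0.3 of the control mean, in C 31 and in D 33. For 30 of the 57 genes (52.6%) A was above and both C and D below the control mean, a pattern found in 252 of the 1906 other well expressed genes (13.2%); a mean near the control favours it. Replicate A was also the highest of the 3 libraries for 44 of the 57 (77.2%) and for 1174 of the other 1906 (61.6%), whose median was -0.49 in A, -0.83 in C and -0.85 in D. Whether the libraries differed in exposure, in quality or in scaling was not tested.

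**Figure D3:**
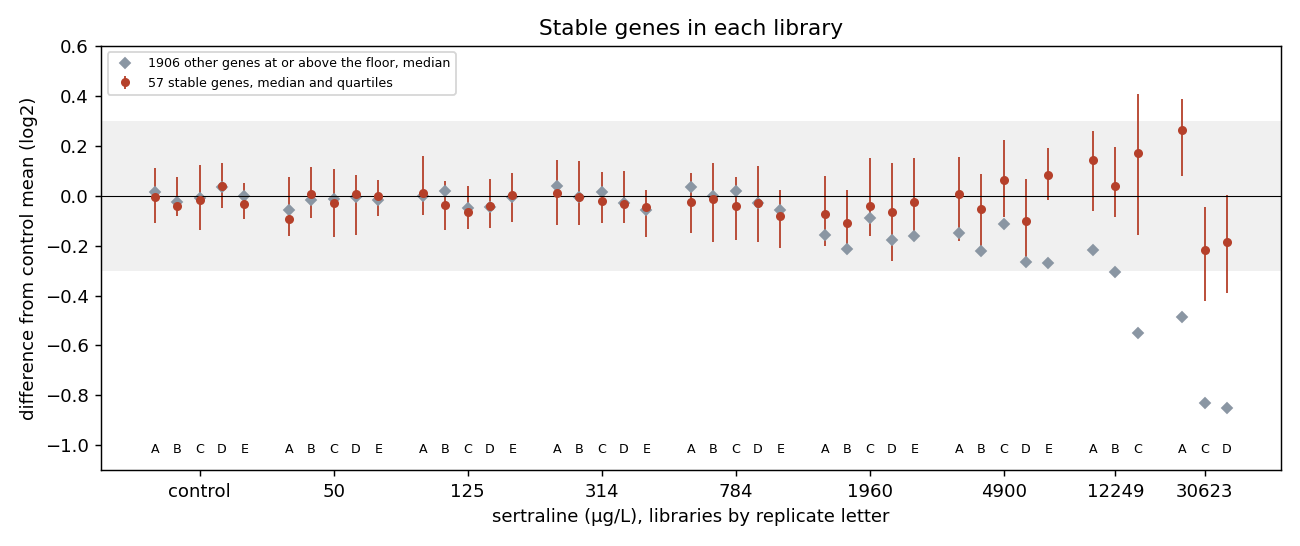
Difference from the control mean (log2) in each of 41 libraries, lettered by replicate: median and quartiles over the 57 stable genes (red) and the median over the 1906 other genes at or above the floor (grey); the shaded band is 0.3 either side of 0. At 30623 µg/L the stable genes' median is 0.26 in A, -0.22 in C and -0.19 in D.

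The set changed when single libraries of the groups with 3, or of the control, were left out. Since the rule chose genes whose 3 libraries average near the control, leaving out 1 of them moves the mean by construction, and the values are a description. Without replicate A of 30623 µg/L, 17 of the 57 genes (29.8%) were called at that concentration by limma with Benjamini-Hochberg adjustment, beside 53.5% of all genes in that fit. The F test called 23 (40.4%), beside 75.9% of all genes. Without replicate C the count at 30623 µg/L was 2 (49.3% of all genes), and without D it was 0 (47.9% of all genes). Applied again without replicate A, C or D of 30623 µg/L, the rule chose 39, 63 and 74 genes. Of these, 33, 47 and 51 were among the 57. Applied without control replicate A, B, C, D or E, it chose 59, 65, 63, 62 and 64 genes. Among the 57 were 47, 51, 49, 50 and 48 of them. Without replicate B of 12249 µg/L, the library of that group whose median lay closest to the control, the rule chose 48 genes, of which 44 were shared, and 7 of the 57 (12.3%) were called at 12249 µg/L, beside 46.7% of all genes.

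The spread between libraries was wider at high concentrations for many stable genes, as it was for other genes. The rule uses group means and not the spread, but it bears on it: a gene with a wide spread has less chance of 8 means within 0.3. Each gene's spread at high concentrations was therefore tested against its own spread at low ones, and counts over the set are read only beside those over other genes. Within the control group a stable gene had a median SD of 0.149, and at 50, 125, 314 and 784 µg/L the medians were 0.144, 0.120, 0.120 and 0.148. The median was 0.166 at 1960 µg/L, 0.221 at 4900 µg/L, 0.238 at 12249 µg/L and 0.345 at 30623 µg/L. The values at 12249 and 30623 µg/L come from 3 libraries each, and a median SD from 3 libraries runs low beside one from 5. Pooled within groups, the SD from 1960 µg/L up exceeded that of the libraries below 1960 µg/L, controls included, for 54 of the 57 genes (94.7%), beside 1847 of the 1906 other well expressed genes (96.9%) and 92.3% of all genes. The median of the 57 pooled SDs was 0.148 in the lower groups and 0.259 in the higher, and the ratio had a median of 1.86 and ran from 0.757 to 3.40.

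**Figure D4:**
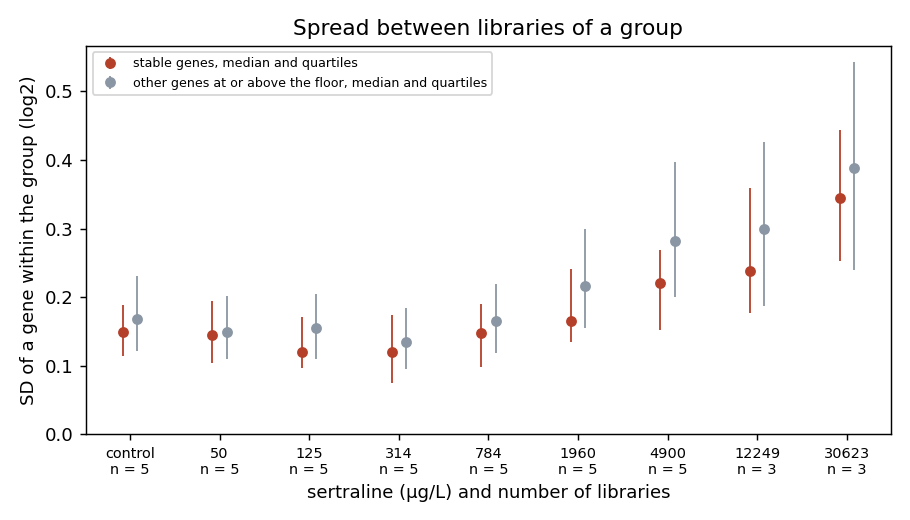
SD of a gene within each group (log2), as median and quartiles over the 57 stable genes and the 1906 other genes at or above the floor, with the number of libraries under each group. The stable genes' median is 0.149 in the control and 0.345 at 30623 µg/L.

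In limma's test on absolute deviations from the group mean, comparing the 4 groups from 1960 µg/L up with the 5 below, 38 of the 57 genes had a wider spread at the high concentrations after Benjamini-Hochberg adjustment (46.6% of all genes), and 0 a narrower one (0.165% of all genes). A total of 41 of the 57 had an unadjusted p under 0.05 in either direction, beside 3983 of all 7291 genes. With deviations taken from the group median in place of the mean, 4 of the 57 were called wider (3.02% of all genes). The test on deviations from the mean also called too many unchanged genes when checked on simulated data. An F test on the ratio of pooled variances was added for that reason. It gave 29 genes with a wider spread (31.5% of all genes) and 0 with a narrower one (0.0686% of all genes). Its unadjusted p was under 0.05 for 37 of the 57, beside 3316 of all 7291 genes. All 29 were among the 38.

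Genes at a similar level widened about as often. Of the 1906 other well expressed genes 1326 (69.6%) were called wider in limma's test and 1060 (55.6%) by the variance ratio, beside 66.7% and 50.9% of the stable genes. The median SD ratio of those 1906 genes was 1.92.

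These counts were lower without the highest concentrations, for the stable genes and for all genes. Without the 30623 µg/L group limma's test called 27 of the 57 wider (47.4%), beside 32.1% of all genes, and the variance ratio called 12 (21.1%), beside 19.4%. Without replicate A of that group alone the counts were 27 (47.4%, beside 34.5% of all genes) and 11 (19.3%, beside 20.4%). Without both the 12249 and the 30623 µg/L groups they were 7 (12.3%, beside 22.2%) and 5 (8.77%, beside 12.8%). The share over all genes is not matched by level. With every group included, limma's test called 46.6% of all genes wider but 69.6% of the 1906 other well expressed genes. The share of those 1906 genes was not counted in the reduced fits, so an excess of the stable genes cannot be read from them.

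**Figure D5:**
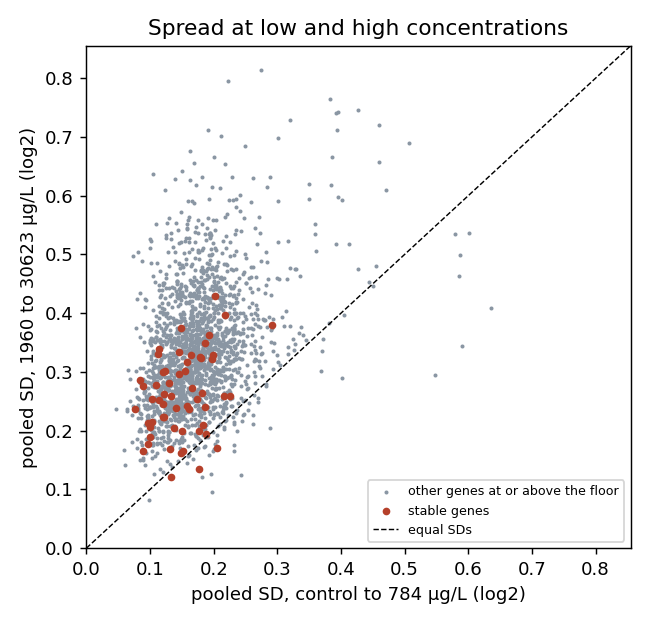
Pooled within-group SD from 1960 to 30623 µg/L against that from the control to 784 µg/L (both log2) for the 57 stable genes (red) and the 1906 other genes at or above the floor (grey); the dashed line marks equal SDs. Above the line lie 54 of the 57 stable genes and 1847 of the other 1906.

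A tighter rule left few genes. With a band of 0.2 in place of 0.3, 8 genes remained, with control means from 5.86 to 10.1. Of these 8, 5 also stayed within 0.5 of the control mean in every treated library, and 6 had all 8 intervals within 0.5. Rsub_00343 had a largest difference of 0.18 and met the tighter rule, while Rsub_04257, at 0.21, did not.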

How the data were processed

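The authors deposited 1 table of normalised values, read here as log2 expression, for 7291 genes and 41 of 45 labelled libraries. The other 4 were not analysed here. Per the submitters' processing notes the tools named are STAR 2.7.10a, featureCounts 2.0.6, fastp 0.23.2, bcl2fastq 2.20.0 and SAMtools 1.15.1, with DESeq2. Not given in the sources used here are the genome build, transform, gene filter and handling of molecular identifiers. If the transform pulls weakly measured genes towards their mean, differences are understated and more genes meet the rule; another log base would change every fold.

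Groups came from the concentration in each title. The rule was applied to group means as deposited. All libraries entered 1 limma fit (limma 3.58.1, R 4.3.3; lmFit, contrasts.fit, eBayes with trend, 32 residual and 24.4 prior degrees of freedom) across all 7291 genes, two-sided, with Benjamini-Hochberg adjustment and a threshold of 0.05. Spread was tested by the same steps on absolute deviations from the group mean, multiplied by sqrt(n/(n-1)). This and the fit of means were tested on simulated data. The variance ratio (16 libraries against 25) and the fits without 30623 µg/L were added after the data had been seen. The genes described by library were the 2 lowest and 2 highest in SD over all libraries. Members and lists were chosen with earlier results of these data known. Lists by product name were not used, since the identifiers carry no names. No 2 libraries were copies (highest correlation 0.975). Plots used matplotlib 3.10.9 under Python 3.11.15.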

Additional observations from a re-analysis of the deposited data

Results flagged for a closer look

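Among the 35 groups of 5 values examined (the 4 genes described by library and the median over the 57 stable genes in each library), 2 held a library far from the other 4, where chance alone gives about 1.75. Replicate D at 4900 µg/L had 9.71 for Rsub_00343, against 10.02 to 10.08 in the others. Replicate D at 125 µg/L had 5.14 for Rsub_01299, against 5.64 to 5.71 in the others. The groups of 3 libraries at 12249 and 30623 µg/L were too small for this examination.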

How the results depend on the processing

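The size of the set depended on the rule's cut-offs. It was 8 with a band of 0.2, 148 with 0.4, 89 with a floor of 5, 40 with a floor of 6 and 287 with no floor. Without the 30623 µg/L group it was 185, and without that and the 12249 µg/L group 474. Quantile scaling gave 92, of which 37 were among the 57, centring 71 (53 shared) and group medians 47 (28 shared). Leaving out 1 library gave 39 to 74.

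Calls of the 57 genes against the control moved most at 30623 µg/L and in the F test. Leaving out 1 library gave 0 to 1 at 1960 and at 4900, 0 to 7 at 12249 and 0 to 17 at 30623 µg/L. In the F test it gave 7 to 23. Over all genes these fits called at least 1334, 2186, 3045 and 3495 at those concentrations, and at least 5077 in the F test. Centring gave 0 at 4900 (33.7% of all genes) and 3 at 12249 µg/L (49.7%). Quantile scaling gave 2 at 1960 (22.3% of all genes), 1 at 12249 (48.5%) and 15 at 30623 µg/L (55.9%). In the F test it gave 18 (72.9%). With only genes at or above the floor tested there were 1 at 1960, 2 at 4900, 4 at 12249 and 1 at 30623 µg/L. Of the 1963 genes tested, 39.2%, 51.4%, 72.9% and 76.2% were called. With only the groups compared there were 1 at 1960 (23.1% of all genes) and 0 at 4900 µg/L (29.7%). There, 3 genes had all intervals within 0.5. In that fit 166 of all genes were called at 314 µg/L in place of 53, and 434 at 784 µg/L in place of 213. The causes were not tested.

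With the replicate letter as a block, 2 of the 57 were called at 12249 (50.0% of all genes) and 1 at 30623 µg/L (53.5%). With that block 30 had a wider spread in place of 38, beside 37.7% of all genes. The mean correlation of deviations from the group means was 0.009 for same-letter pairs and -0.002 for pairs of other letters. Of the 149 same-letter pairs, 19 had a correlation over 0.1, and 11 of 41 libraries were nearest their own letter. Whether a letter marks a shared plate or batch cannot be told from these values.

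For the spread from 1960 µg/L up, deviations from the group median gave 4 of the 57 wider and 220 of all genes in place of 3400. In groups of 3 or 5 libraries the median library itself has a deviation of 0. That is 1 of 3 deviations at 12249 and 30623 µg/L and 1 of 5 in every other group, so the high and low sides are not alike in this. Why the counts were lower was not tested. Without 12249 and 30623 µg/L there were 7, and 1621 of all genes. Without 30623 µg/L 1 of the 57 was narrower, and 12 of all genes. Leaving out 1 library gave 27 to 41 wider and 0 to 1 narrower, beside at least 2514 and 8 of all genes. The variance ratio gave 12 without 30623 (19.4% of all genes) and 5 without 12249 and 30623 µg/L (12.8%). It gave 19 under quantile scaling (32.6%). With 1 library left out it gave 11 to 33, beside at least 1485 of all genes. Unknown read depth and groups of 3 libraries limit what differences could be seen.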

Other observations

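Of the 5328 genes with a control mean under 5.5, 230 (4.32%) also had all 8 group means within 0.3 of the control, beside 2.90% of the genes at or above that level. How far the transform of the deposited values bears on this was not tested.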
